A study of Homo sapiens with 32 samples.

Results

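Olfactory receptors are the odorant-sensing G protein-coupled receptors of the nasal epithelium, where an olfactory neuron typically transcribes a single allele of a single receptor gene. The receptor signals through the G protein subunit GNAL and adenylyl cyclase ADCY3 to a cyclic nucleotide-gated channel. The genes stand in clusters, have a short intronless coding region, and are usually treated as unexpressed in blood cells. They can therefore serve as a set of probes that shows what an array reads when little or no transcript is present. The set held every transcript cluster, the group of probes the array assigns to 1 gene, whose single gene symbol has the form of an olfactory receptor name. There were 221 such clusters among 21788, and each carried a different symbol. RefSeq lists 214 of the genes as protein-coding and 7 as pseudogenes. Class I receptors, families 51, 52 and 56 here, made up 48 of them, and class II receptors 173. A further 57 clusters that carried an olfactory receptor symbol together with other symbols were not members.

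The RNA came from 7 B-lymphoblastoid cell lines, B cells made to grow without limit by Epstein-Barr virus: GM07019, GM07029, GM10835, GM12812, GM12813, GM12814 and GM12815. All cultures received 200 µM 4-thiouridine (4sU) for 2 h, and total RNA and the 4sU-labelled nascent RNA were read on separate human exon arrays, 16 per fraction. Of GM07029, GM10835 and GM12813 there were 3 cultures each, and of the other 4 lines a single one. Both RNA fractions of every GM12813 culture were read a second time as technical duplicates. No unlabelled culture and no mock pull-down was analysed here. The series asked how mRNA stability, read from the nascent/total ratio, varies between genes and lines.

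All values are log2 intensities, and a ratio is the nascent minus the total log2 value of a culture. Precision is limited by how many arrays there are. Of 12 B cell marker genes, 11 had a cluster of their own, and their mean total RNA values ran from 9.10 to 12.41. The median of an array was 6.74 to 6.95 for total RNA and 7.58 to 7.92 for nascent RNA. Levels of different clusters also depend on their probes, so the order of the receptors given below is a description of signal, not of transcript number.

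The olfactory receptors lay low in both fractions, and their signal was higher in nascent than in total RNA. The median receptor read 4.21 ± 0.07 in total RNA (SD, n = 7 lines) and 4.91 ± 0.08 in nascent RNA. The line medians ran from 4.12 to 4.30 in total RNA and from 4.80 to 5.03 in nascent RNA, so the fractions did not overlap. Within a line, the median difference between fractions was 0.65 ± 0.04 (range 0.59 to 0.69) on the deposited scale, and it turned to -0.14 when all 32 arrays were quantile normalized together. The same difference was 0.76 ± 0.05 over all 21788 clusters and 0.76 ± 0.07 over 72 clusters of other families that these cells are not known to use, namely taste and vomeronasal receptors, keratin-associated proteins, beta-defensins, late cornified envelope proteins and small proline-rich proteins. Thus the deposited background moved between fractions by nearly as much as the whole array, and its sign depended on the scaling. Joint quantile normalization gives every array the same distribution and so removes the shift of the whole array by construction. The change of sign is therefore not a separate result.

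**Figure D1:**
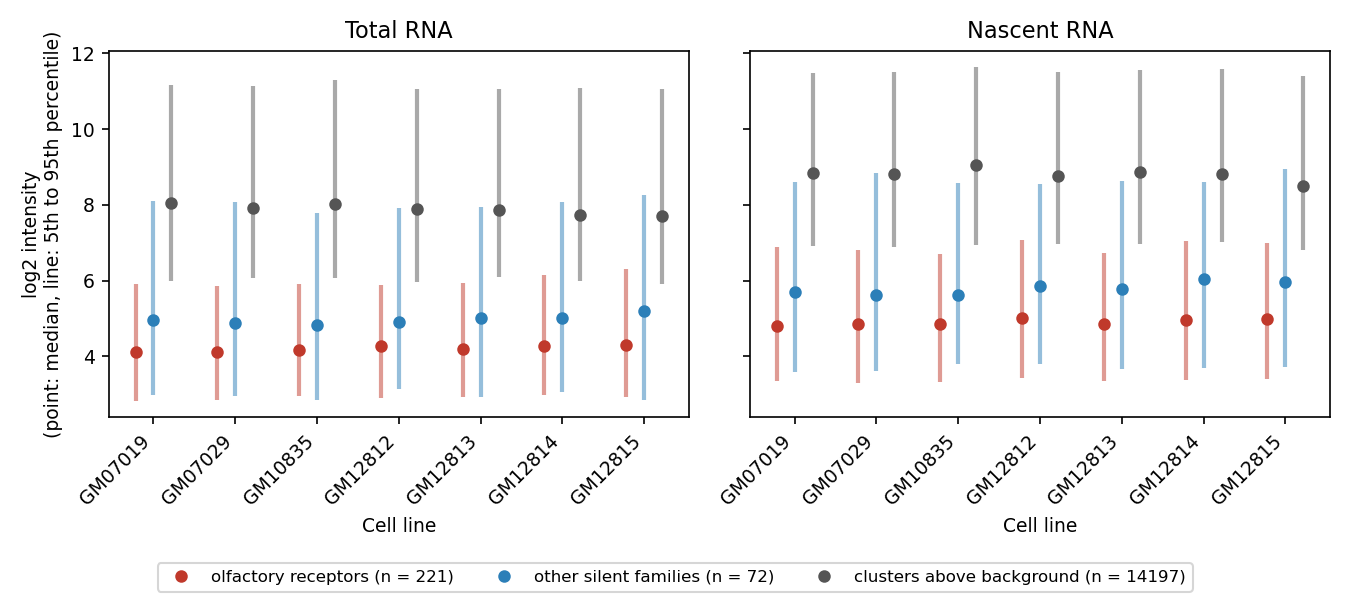
log2 intensity (vertical axis) in each of the 7 lines (horizontal axis) for total RNA (left) and nascent RNA (right). Points are medians over clusters and lines run from the 5th to the 95th percentile for the 221 olfactory receptors (red), the 72 clusters of other silent families (blue) and the 14197 clusters whose mean exceeded the 95th percentile of the receptors (grey). The red medians stay within 4.12 to 4.30 on the left and 4.80 to 5.03 on the right, below both other sets in every line.

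The sign in single receptors followed the scaling too. On the deposited scale nascent exceeded total RNA in all 7 lines for 169 of 221 receptors and was below it in all 7 lines for 7, and with joint quantile normalization of all 32 arrays these numbers were 17 and 68. The mean difference was above 0 for 206 receptors and below 0 for 15 on the deposited scale, against 74 and 147 with joint normalization. These signs were not counted over all clusters. In the limma test given below, without centring, nascent RNA was called higher for 85.5% of the receptors and 86.2% of all clusters. It was called lower for 3.62% and 3.96%, so the receptors were near the whole array. Class I receptors had a median difference of 0.76 ± 0.03 and class II receptors one of 0.62 ± 0.05, with line ranges of 0.71 to 0.80 and 0.53 to 0.67 that did not overlap. The median of the 7 pseudogenes was 5.30 ± 0.20 in total RNA and 5.92 ± 0.23 in nascent RNA (SD between lines, not between genes). That was above the 4.19 ± 0.08 and 4.89 ± 0.08 of the 214 protein-coding receptors. Single genes overlapped: from the 5th to the 95th percentile, mean total RNA ran from 3.19 to 5.79 in pseudogenes and from 2.92 to 5.99 in protein-coding receptors. The median difference between fractions of the pseudogenes, 0.64 ± 0.10, lay beside the 0.65 ± 0.04 of the protein-coding ones. Across the 221 receptors the mean total and nascent values had a Pearson correlation of 0.911 and a Spearman correlation of 0.902. The points of that correlation share probes and cultures, and the difference between fractions itself was almost unrelated to the total RNA level (Pearson -0.03).

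The signal of a receptor was a reproducible property of its cluster. Between lines, the 221 total RNA values had a mean Pearson correlation of 0.937 over the 21 pairs of lines, and the nascent values one of 0.961. The ratio of the same clusters correlated less, with a mean of 0.666 and a range of 0.516 to 0.861, against 0.797 over all clusters. Each of these pairs shares its probes, so cluster-specific probe behaviour enters the correlation in full.

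To ask which receptors rose above background, the 95th percentile of the 72 clusters of other silent families was used as the limit, 8.07 in total RNA and 8.68 in nascent RNA. No receptor passed it by its mean over the 7 lines in total RNA (0 of 221, against 29.5% of all clusters) or in nascent RNA (0 of 221, against 34.8%). All 11 measured B cell markers passed in both fractions. This limit is strict: in total RNA it lies above the median of all clusters, 6.83. The 90th percentile, 7.37, was passed in total RNA by OR4C16 alone, and so was the 95th percentile of the 34 keratin-associated protein clusters, 7.44. The median of the 72 clusters, added as a limit after the data were seen, was passed by 55 receptors in total RNA and 43 in nascent RNA. Most of the array passed it too: this limit was 5.01 and 5.82, and the median of all clusters 6.83 and 7.77. Such a count is of signal and not of expressed genes. In these bulk cultures, fewer cells with a transcript and less transcript per cell cannot be told apart.

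OR4C16, a class II receptor, had the highest total RNA signal of the set. It read 7.38 in GM07019, 7.37 in GM07029, 7.45 in GM10835, 8.06 in GM12812, 7.59 in GM12813, 7.93 in GM12814 and 7.79 in GM12815. The GM12812 value was the only one of any receptor in any line to pass that line's own limit, which was 7.93. The nascent values of OR4C16 were 7.35, 7.03, 7.02, 6.86, 7.28, 7.70 and 6.81 in the same order, below its total RNA in every line, whereas most receptors were higher in nascent RNA. The nearest genes with a cluster of their own on either side, the receptors OR4C15 and OR4C11, read 3.80 and 3.51 in total RNA.

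OR56B1, a class I receptor, came next in total RNA and first in nascent RNA. Its total RNA ran from 6.81 in GM07029 over a median of 7.30 to 7.83 in GM12814, and its nascent RNA from 7.22 in GM10835 over a median of 7.64 to 7.99 in GM12814. The class I receptor OR51B4 read 6.84 ± 0.31 in total RNA and 7.28 ± 0.23 in nascent RNA. Among genes with a cluster of their own, the beta-globin gene HBB stands next to it in chromosome order, and other genes may lie between them. HBB, named here after its values were seen, read only 2.60 in total and 2.93 in nascent RNA. The other receptors among the 8 highest in total RNA were OR4D10 at 6.43 ± 0.27, OR2B11 at 6.36 ± 0.16, OR2C1 at 6.28 ± 0.26, OR2Z1 at 6.18 ± 0.29 and OR10S1 at 6.16 ± 0.32. Among those 5, neighbours in the order differed by less than the larger of their SDs between lines. In nascent RNA, OR52M1 at 7.12 ± 0.21 and OR52W1 at 7.07 ± 0.16 joined the 8 highest. At the low end OR1L3 read 2.66 ± 0.04 in total RNA, OR4C3 2.69 ± 0.14 and OR7A10 2.74 ± 0.15. Receptor signals thus spread from 2.66 to 7.65 among genes none of which passed the background limit.

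**Figure D2:**
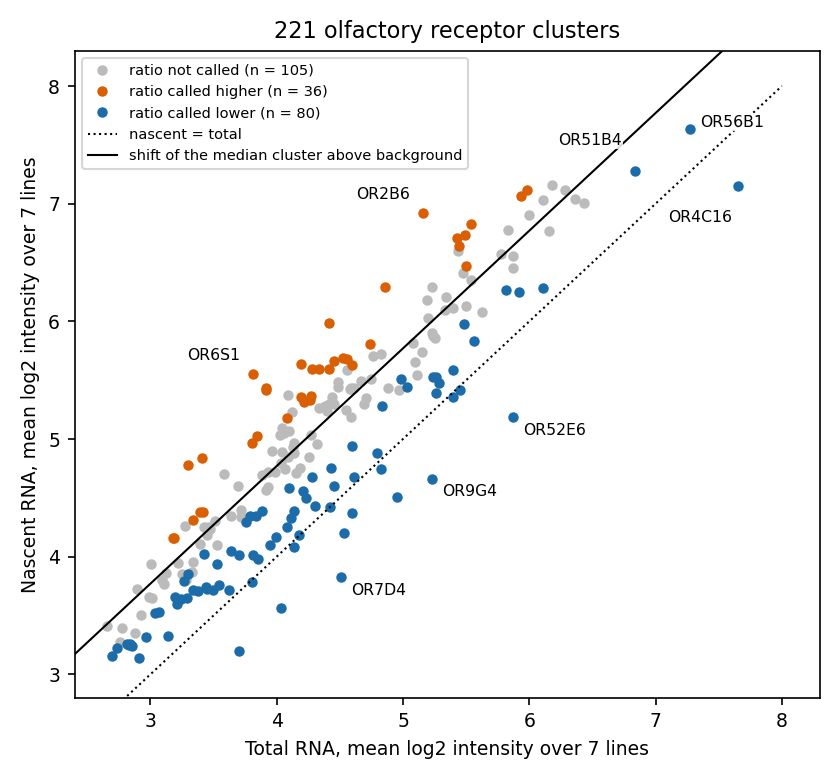
Mean nascent RNA (vertical axis) against mean total RNA (horizontal axis), both log2 intensity over 7 lines, for the 221 olfactory receptor clusters. Orange points have a nascent/total ratio called higher than the median cluster (36), blue points one called lower (80) and grey points one that was not called (105). The solid line marks the shift of the median cluster above background, 0.77, and the dotted line equal values. OR4C16, OR52E6, OR7D4 and OR9G4 lie below the dotted line, and OR2B6 and OR6S1 farthest above the solid line.

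Receptors beside a gene above background read much like the rest. The adjacent measured gene passed the background limit for 24 receptors, and those had median values of 4.11 in total RNA and 4.78 in nascent RNA. The 197 receptors without such a neighbour read 4.22 and 4.93. The median difference between fractions was 0.62 and 0.67. These differences were not tested.

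The partners of the receptors in the olfactory neuron were faint as well. Of 26 olfactory pathway genes, 23 had a cluster with 1 symbol, and 1 passed the background limit in each fraction. That was RIC8B, a chaperone and exchange factor for G protein alpha subunits, at 8.08 ± 0.27 in total RNA and 8.91 ± 0.35 in nascent RNA. GNAL read 5.24 ± 0.06 in total RNA, the channel subunits CNGA2 and CNGB1 4.99 ± 0.09 and 5.54 ± 0.12, and the calcium-activated chloride channel ANO2 5.02 ± 0.04. OMP, the olfactory marker protein of mature neurons, read 4.31 ± 0.16. The trace amine receptor TAAR1 stood highest among the rest at 7.10 ± 0.43.

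Windows of RefSeq promoter sequence were available for 170 of the 221 genes, with 179 start sites. They were searched for the homeodomain core that factors such as LHX2 bind in olfactory promoters. The windows, 300 bases around the start, had a median GC content of 38.7% against 58.7% over 35116 starts of all genes, and a median of 1 CpG against 14. The letters TAATTA, searched on both strands, were found in 39 of 179 (21.8%) against 4.84% of all starts. The palindrome of TCCC and GGGA with any 2 bases between them, a form of the Olf/EBF site whose factor EBF1 is also a B cell factor, was found in 3 (1.68%) against 1.21%. TATAAA was found on either strand in 53 (29.6%) against 11.5%. The motifs were counted separately and their matches may overlap. At 43.0% of the receptor starts, against 2.29% of all, the annotated start is the ATG itself. Such a window lies around the start of the coding region and is not a mapped promoter. The match is in capitals in the 4 windows below, 5′ to 3′ on the gene's strand (GRCh38.p14), for receptors whose values are described next: OR2B6 at chr6:27957050-27957079 (+), OR4C6 at chr11:55662111-55662140 (+), OR52E6 at chr11:5842083-5842112 (-) and OR5M11 at chr11:56543399-56543428 (-).
OR2B6: gaaatactttggTAATTAtgagcattttca
OR4C6: actatgaagaatTAATTAtaattgcctctg
OR52E6: gtgaagctgattTAATTAttgattctgttt
OR5M11: gtaagtctaccaTAATTAccaaaaccagtt
These windows were chosen for holding a match, which 7 of the 31 named receptors had. A match here is a description of sequence only.

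The nascent/total ratio was next set against the median cluster of each culture, taken over the 14197 clusters whose mean exceeded the 95th percentile of the receptors, 6.39. A ratio is called below where limma gave a Benjamini-Hochberg adjusted p under 0.05 over all 21788 clusters. The ratio was called for 116 of 221 receptors, 52.5%, against 60.8% of all clusters. It was higher than the median cluster for 36 receptors (16.3%, against 29.4% of all clusters) and lower for 80 (36.2%, against 31.4% of all clusters). The median receptor stood at -0.12 and the median of all clusters at -0.02. The other silent families gave 12 higher and 16 lower calls among 72. The receptors' share of called ratios was thus below, but not far from, that of the whole array, although their signal was at background. By direction, their share of higher calls was well below that of the whole array and their share of lower calls somewhat above it. Without centring, 189 receptors were called higher and 8 lower (86.2% and 3.96% of all clusters), so 95.9% of the calls were higher against 31.0% in the centred values. The 23 measured olfactory pathway genes gave 4 higher and 9 lower calls centred, and 22 higher and 0 lower ones without centring by the same limma test.

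Which receptors had large ratios depended on the centring. Centred, 0 of 221 were called at 2-fold or more above the median cluster (8.16% of all clusters) and 8 at 2-fold or more below it (4.2% of all clusters). Without centring, 40 were called with nascent RNA at 2-fold or more above total RNA (30.9% of all clusters) and 0 at 2-fold or more below (0.34%). Of the 116 called receptors, 83 had the same sign in all 7 lines, which was not counted over all clusters. Centred, class I gave 10 higher and 10 lower calls among 48 (20.8% each), and class II 26 higher (15.0%) and 70 lower (40.5%) among 173, beside 29.4% and 31.4% of all clusters. Without centring, class I gave 44 higher and 1 lower, and class II 145 higher and 7 lower.

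The 8 receptors with the largest centred ratios past the threshold were all low, while without centring they ranged only from -0.69 to -0.33 and the largest ratios were high ones, led by OR2B6 at 1.76 and OR6S1 at 1.74. OR52E6, a class I receptor, read 6.67, 5.76, 5.72, 5.91, 5.75, 5.43 and 5.88 in total RNA in GM07019, GM07029, GM10835, GM12812, GM12813, GM12814 and GM12815, and 5.68, 5.53, 4.73, 5.18, 5.37, 5.19 and 4.61 in nascent RNA. Nascent RNA was lower in each line, and the centred ratio was lowest in GM12815 at -1.92, with a median over the lines of -1.54. Its mean was -1.46 ± 0.36 (limma, adjusted p = 7e-06). OR7D4, the receptor for the steroid odorant androstenone, ran from -2.12 in GM12814 over a median of -1.51 to -0.98 in GM10835, with a mean of -1.46 ± 0.40 (adjusted p = 1e-05). Both were below 0 in all 7 lines, and both were lower in nascent than in total RNA before centring, by a mean of -0.69 each.

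The remaining 6 had means of -1.34 ± 0.29 for OR9G4, -1.28 ± 0.43 for OR4C16, -1.27 ± 0.19 for OR13C3, -1.24 ± 0.37 for OR5M9, -1.21 ± 0.10 for OR5M11 and -1.10 ± 0.39 for OR8I2. OR5M11 was the most even of the 8, from -1.35 in GM07019 to -1.09 in GM12815. Before centring, 7 of the 8 were lower in nascent than in total RNA in all 7 lines, and OR8I2 was so in 6. Those 7 were the only ones among the 221 receptors with that pattern. Neighbours in the order of the 8 means differed by less than the larger of their SDs.

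In the other direction OR2B6 and OR6S1, both class II, had the highest mean ratios. OR2B6 had ratios of 1.38 in GM07019, 1.51 in GM07029, 0.28 in GM10835, 0.75 in GM12812, 1.35 in GM12813, 0.34 in GM12814 and 1.34 in GM12815, a mean of 0.99 ± 0.52 (limma, adjusted p = 0.00054). OR6S1 ran from 0.21 in GM12815 over a median of 0.93 to 1.43 in GM07019 and GM12812, a mean of 0.97 ± 0.47 (adjusted p = 0.00034). OR2D2 had a mean of 0.68 ± 0.40 and ran from 0.03 in GM12814 to 1.25 in GM07019. All 3 were above 0 in 7 of 7 lines.

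**Figure D3:**
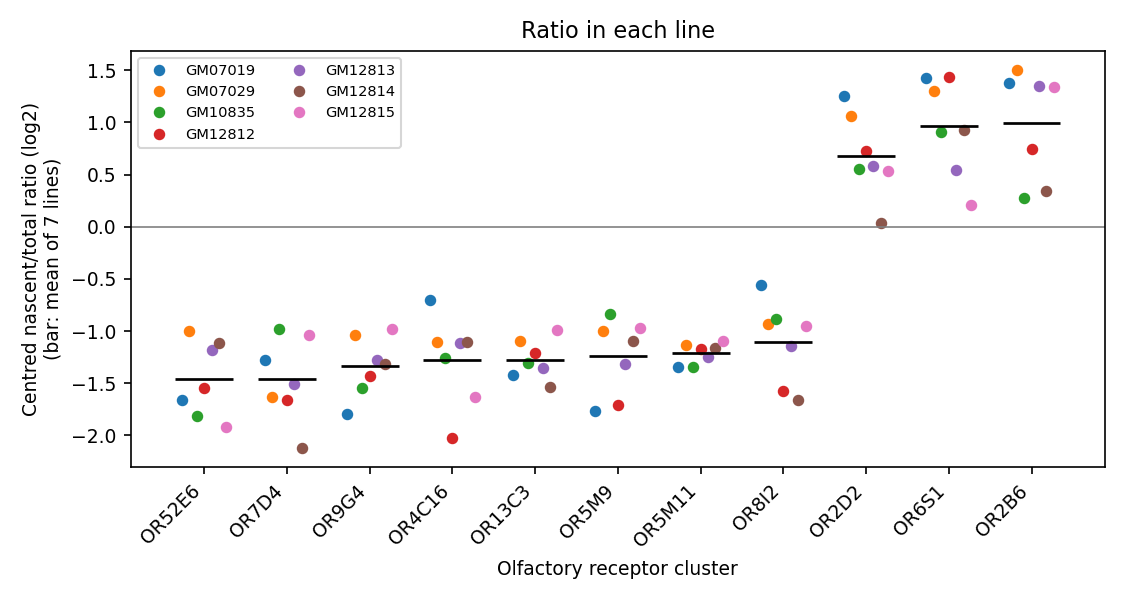
Nascent/total ratio (log2, vertical axis) centred on each culture's median cluster, for the 8 receptors with the lowest called ratios and for OR2D2, OR6S1 and OR2B6 (horizontal axis). Each point is 1 of 7 lines, coloured by line, and the black bars are means over the lines. The 8 receptors on the left are below 0 in every line, with means from -1.46 to -1.10, and the 3 on the right above 0, with means from 0.68 to 0.99.

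The median spread of the receptors between lines was no larger than that between technical duplicates. In total RNA the median SD over the receptors was 0.234 for technical duplicates, 0.208 for the cultures of 1 line and 0.223 for the 7 lines. In nascent RNA the corresponding values were 0.175, 0.185 and 0.168, and for the ratio 0.274, 0.283 and 0.273. The comparison set was the 14197 clusters whose mean exceeded the receptors' own 95th percentile, 6.39, a lower limit than the background limit above. In that set the order was different: 0.149, 0.155 and 0.278 in total RNA, 0.0892, 0.115 and 0.274 in nascent RNA, and 0.165, 0.175 and 0.261 for the ratio. There the lines differed by more than the duplicates did. The value of a line with 3 cultures is a mean, which lowers the spread between lines in both sets.

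**Figure D4:**
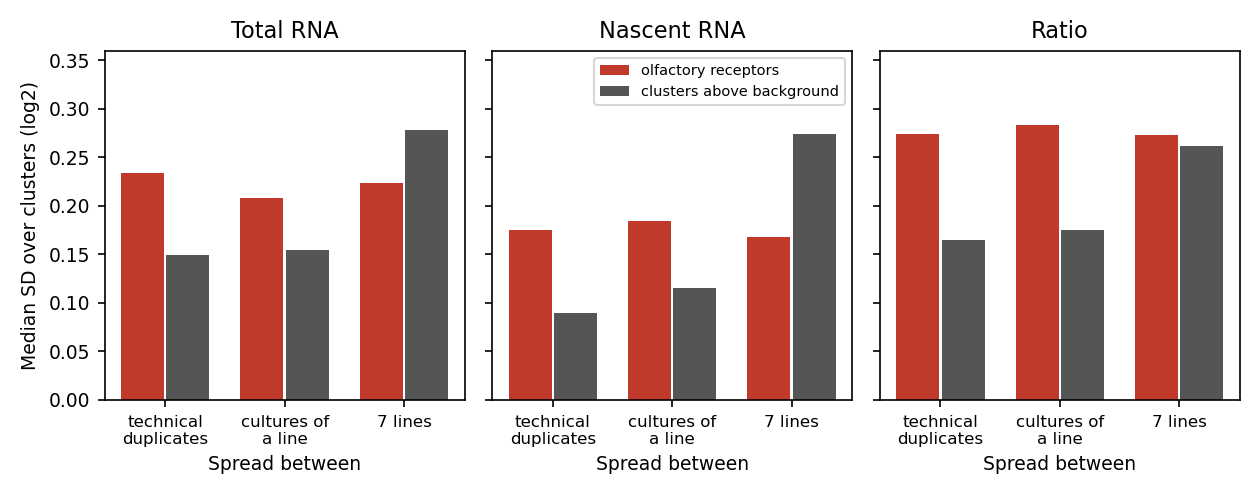
Median SD over clusters (log2 units, vertical axis, from 0) of technical duplicates, of the cultures of 1 line and of the 7 lines (horizontal axis), for total RNA, nascent RNA and the ratio. Red bars are the 221 olfactory receptors and grey bars the 14197 clusters above background. The 3 red bars of a panel are nearly level, from 0.208 to 0.234 in total RNA, while the grey bar for the 7 lines stands above the other grey bars.

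The 3 lines with 3 cultures each were then compared with limma's moderated F test over 9 cultures. Total RNA differed between GM07029, GM10835 and GM12813 for 9 receptors, against 39.1% of all clusters, and nascent RNA for 9 receptors, against 38.8% of all clusters. That is 4.07% of the receptors in each fraction. The ratio differed for 0 receptors by limma, against 10.7% of all clusters, with 21 receptors at an unadjusted p under 0.05. The other silent families gave 8, 10 and 2 calls among 72. A single receptor, OR2D2, was called in both fractions, against 5780 of all 21788 clusters. In at least 1 fraction, 17 receptors were called, against no less than 39.1% of all clusters, the share called in total RNA. The tests of total and nascent RNA use the same cultures.

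The differences called in total RNA were small. OR2C1 showed the largest range: its cultures read 6.70, 6.78 and 6.10 in GM07029, 5.96, 5.42 and 6.01 in GM10835 and 6.38, 6.16 and 6.20 in GM12813, with line means of 6.52, 5.80 and 6.25 (limma, adjusted p = 0.046). The GM10835 cultures lay below all 6 others. OR51G1 had line means of 3.53, 2.90 and 3.21 (adjusted p = 0.039), and its GM12813 cultures, at 2.89, 3.28 and 3.47, overlapped with both other lines. OR7A10 had the lowest adjusted p of the named receptors, 0.016, at a total RNA level of 2.58, 2.98 and 2.63, among the faintest of the set. The other named receptors, OR13F1, OR2D2, OR2AG1, OR4K17 and OR51L1, had ranges between 0.35 and 0.51.
Without culture 1 of GM10835, 0 receptors were called in total RNA by limma, with 14 at an unadjusted p under 0.05, while the ranges changed little: OR2C1 stood at 0.81, OR51G1 at 0.60 and OR7A10 at 0.38, against 0.73, 0.62 and 0.40 with all 9 cultures. Without culture 3 of GM10835 there were 5 calls, without culture 2 of GM12813 there were 2, and without any other single culture 6 to 9. Calls without a culture were not counted over all clusters.

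The calls in nascent RNA were larger, and 5 of them held in all 13 alternatives run. OR2B6 had the widest range: its nascent values were 7.68, 6.96 and 6.75 in GM07029, 5.77, 6.18 and 5.50 in GM10835 and 7.36, 7.22 and 7.06 in GM12813, with line means of 7.13, 5.82 and 7.21 (limma, adjusted p = 0.0017). All GM10835 cultures were below all others. In total RNA the same cultures read 5.93, 4.03 and 4.63 in GM07029, 4.40, 4.82 and 4.90 in GM10835 and 5.00, 5.33 and 4.85 in GM12813, which overlapped (adjusted p = 0.75). GM10835 was also the lowest of all 7 lines in nascent RNA, the other 6 lying between 6.79 and 7.58. The nearest genes with a cluster of their own were OR2B2 and the zinc finger gene ZNF165, named after its values were seen. OR2B2 read 3.64, 3.38 and 3.63 in nascent RNA in these lines (limma, adjusted p = 0.24). ZNF165 read 7.81, 7.38 and 7.53 and was likewise lowest in GM10835 (adjusted p = 0.028), but 38.8% of all clusters were called in nascent RNA. The nearest such genes of OR52E6, OR56B1, OR10H4 and OR4C6, described next, were not called (limma, adjusted p 0.12 to 0.94). A link between neighbours was not tested.

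Among the 3 lines, the class I receptors OR52E6 and OR56B1 were lowest in GM10835 as well. Over all 7 lines OR52E6 was lower still in GM12815, at 4.61 against 4.73. The nascent values of OR52E6 were 5.51, 5.62 and 5.46 in GM07029, 4.91, 4.47 and 4.80 in GM10835 and 5.50, 5.14 and 5.46 in GM12813 (limma, adjusted p = 0.0024). Those of OR56B1 were 7.79, 7.73 and 7.77 in GM07029, 7.28, 7.30 and 7.07 in GM10835 and 7.72, 7.77 and 7.54 in GM12813 (adjusted p = 0.0023). In both, the GM10835 cultures lay below all 6 others, while the total RNA of both missed the threshold (adjusted p = 0.97 and 0.14).

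OR10H4 and OR4C6, class II receptors, had other orders. OR10H4 read 3.05, 3.39 and 3.38 in nascent RNA in GM07029, 4.27, 3.84 and 4.21 in GM10835 and 3.67, 3.54 and 3.78 in GM12813, so its 3 lines did not overlap and GM10835 was highest (limma, adjusted p = 0.0027). OR4C6 read 4.96, 5.07 and 4.84 in GM07029, 5.00, 4.84 and 4.72 in GM10835 and 5.73, 5.44 and 5.78 in GM12813 (adjusted p = 0.00094). Here GM12813 lay above the others, and of the lines with 1 culture GM12812 read 5.72 and GM12815 4.42. Like every receptor, OR4C6 and OR10H4 lay below the background limit of 8.68 in mean nascent RNA. What these differences reflect was not tested.

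The remaining calls in nascent RNA were less stable. OR2D2 read 6.12, 5.78 and 5.82 in GM07029, 5.68, 6.10 and 5.91 in GM10835 and 5.36, 5.39 and 5.44 in GM12813 (limma, adjusted p = 0.013), so GM12813 was lowest. In total RNA the same receptor was highest in GM10835, at 4.70, 4.67 and 4.18, against 4.10, 4.14 and 4.02 in GM07029 and 3.85, 4.11 and 4.07 in GM12813 (adjusted p = 0.038). OR1F1 and OR6S1 had nascent line means of 4.44, 5.16 and 4.65 and of 5.91, 5.55 and 5.21 (adjusted p = 0.028 and 0.031). The call was lost in some alternative for each of OR2D2, OR1F1 and OR6S1. Without culture 1 of GM07029 there were 18 nascent calls among the receptors, and without culture 3 of GM10835 there were 15, again not counted over all clusters.

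**Figure D5:**
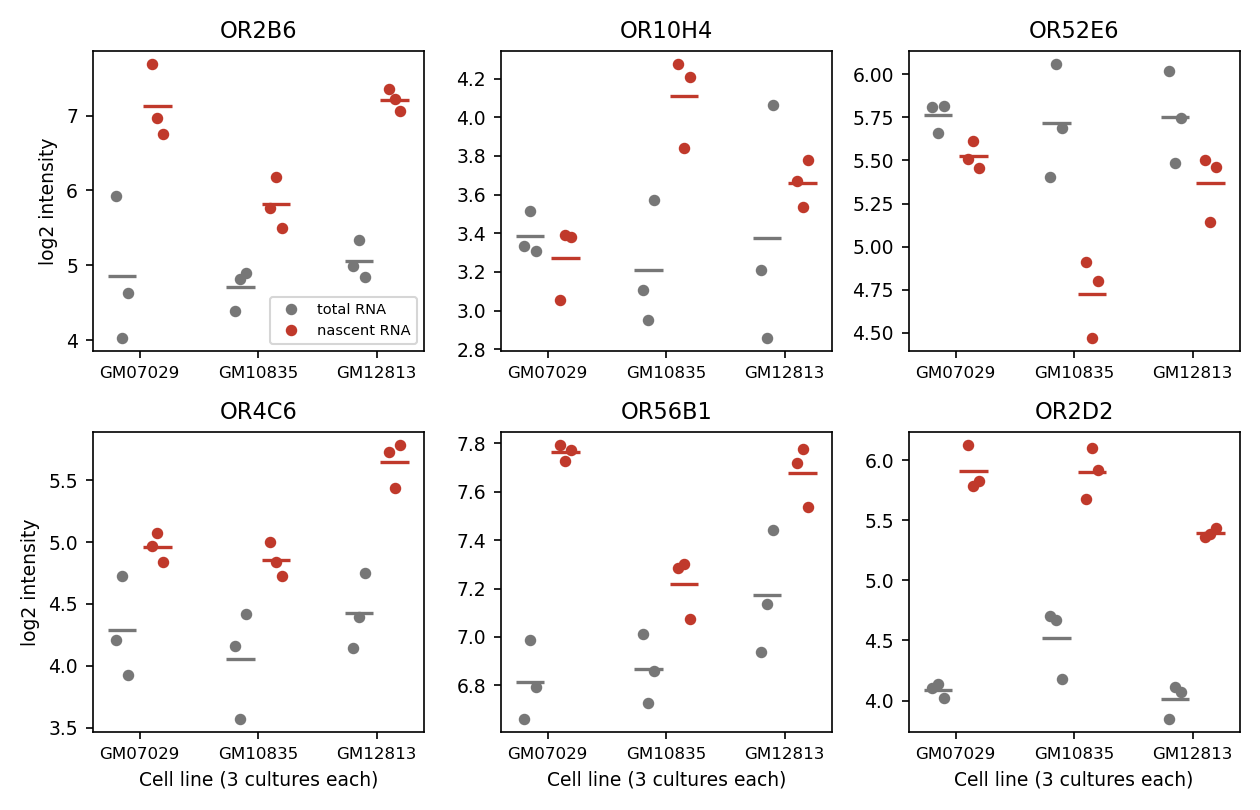
log2 intensity (vertical axis, its range set per panel) of 6 receptors called in nascent RNA in the 3 cultures each of GM07029, GM10835 and GM12813 (horizontal axis). Grey points are total RNA, red points nascent RNA, and bars are line means. OR2B6, OR52E6 and OR56B1 are lowest in GM10835 in nascent RNA, OR10H4 is highest there, OR4C6 is highest in GM12813 and OR2D2 lowest in GM12813. Only OR2D2 was also called in total RNA.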

How the data were processed

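Values are the log2 gene-level intensities deposited by the authors, 1 column per array for 32 arrays. Per the submitters' processing notes, Affymetrix Power Tools was used with build hg18. How probes were summarised and background-corrected, and whether both fractions were normalized jointly, is not given in the sources used here. Symbols were read from the platform annotation, in which 14405 of 21788 clusters have 1 symbol, and all 221 receptors were matched to RefSeq by Entrez identifier. Promoter windows are RefSeq's (GRCh38.p14).

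Technical duplicates were averaged, and each culture's ratio was centred on its median over 14197 clusters. The 7 lines (mean of their cultures) and the 9 cultures of 3 lines were tested with limma 3.58.1 in R 4.3.3 (lmFit, eBayes with a trend, two-sided), fitted and Benjamini-Hochberg adjusted over all 21788 clusters, threshold 0.05. The p-values measure the spread between these cultures or lines. The code was tested on simulated data.

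Named receptors were, per test, up to 8 with the largest called effect, the 8 highest in each fraction and the 3 lowest in total RNA. Members, gene lists and this rule were chosen with earlier results of these data known. Alternatives covered centring, quantile normalization, duplicates, filters, variance trend, pairing, limits and leaving out each line or culture.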

Additional observations from a re-analysis of the deposited data

Results flagged for a closer look

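In 6 of the 96 sets of 7 line values examined, for the named receptors and the receptor medians, 1 line stood apart from the other 6 by Dixon's criterion, and chance marks about 1 set in 20. OR52E6 read 6.67 in total RNA in GM07019, against 5.43 to 5.91 in the other lines, so that line had more OR52E6 signal in the fraction where the receptor already exceeded its nascent RNA. OR2Z1 read 6.79 in total RNA in GM12814, against 5.88 to 6.26. OR6S1 read 4.48 in total RNA in GM12815, against 3.46 to 3.86, and its ratio was lowest in that line. OR51L1 read 5.33 in nascent RNA in GM12815, against 4.81 to 4.97. OR13C3 read 2.92 in nascent RNA in GM07019, against 3.21 to 3.27. OR7A10 had a ratio of -0.54 in GM10835, against -0.30 to -0.15 in the other lines, and its total RNA was highest there. GM07019, GM12814 and GM12815 had 1 culture each, so whether those values would recur in another culture was not tested.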

How the results depend on the processing

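The count of receptors with a called ratio went from 116 to 197 without centring (189 higher, 8 lower). The share of all clusters went from 60.8% to 90.2%. Leaving out each line gave 101 to 115 receptor calls, 28 to 39 of them higher and 73 to 82 lower. It gave calls for 55.4% to 59.9% of all clusters. In total RNA there were 4 calls without technical duplicates and 4 with the replicate block, and 0 to 9 when 1 culture was left out. In nascent RNA leaving out 1 culture gave 6 to 18. For the ratio between 3 lines there was 1 call without centring, with centring on all clusters, with centring on the silent families and without technical duplicates, and 3 with quantile normalization within each fraction, and 0 to 3 when 1 culture was left out. OR1A2, named after its values were seen, was called in 4 of these settings and OR10H4 in 3. The replicate block gave 10 nascent calls and 0 ratio calls. For these alternatives of the comparison of 3 lines, calls were not counted over all clusters. The culture numbers do not pair the cultures: deviations of same-numbered cultures from their line means correlated between -0.46 and 0.39 over the 14197 clusters used for centring. With nascent and total RNA of a culture treated as unpaired, the ratio was called for 107 receptors and 49.8% of all clusters. In total RNA 1 receptor passed the 90th percentile and 1 that of the keratin-associated proteins alone. The added limit at the median, which most of all clusters passed, was passed by 55 receptors in total and 43 in nascent RNA. The median difference between fractions went from 0.65 to -0.14 with quantile normalization of all 32 arrays together, which removes the shift of the whole array by construction. The causes of the other changes were not tested. Keeping only clusters above the silent-family limit left no receptor to test. All 8 named ratio calls held in every alternative, though without centring the means shrank to between -0.69 and -0.33, whereas each of the 8 named total RNA calls was lost in at least 2 of 13.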
